A study of Mus musculus with 18 samples.

Results

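The 10 immediate-early genes described here were followed through 18 RNA-seq libraries of mouse leukaemia cells: the EGR transcription factors Egr1, Egr2 and Egr3, the AP-1 subunits Fos, Fosb, Jun and Junb, the early response genes Ier2 and Ier3, and the orphan nuclear receptor Nr4a1. They are 10 of the 23899 genes in the deposited table and were taken by name. Of these, 8 reached a mean of 1 FPKM (a level scaled by transcript length and library size) over the libraries and were tested; Egr2 and Egr3 did not. The source was a primary leukaemia of the mouse with MLL-AF9, the fusion of KMT2A and MLLT3, and cells of all groups carried MLL-AF9 and Cas9 and grew with mouse interleukin-3 (10 ng/mL). Cells of 4 groups received the Jmjd1c guide RNAs e12.3, e12.4, e20.1 or e21.1, 1 group received a guide against Renilla luciferase, a gene that mouse cells lack, and 1 was mock, with 3 libraries in each group. JMJD1C belongs to the jumonji family of nuclear H3K9 demethylases, and the series set guides against its jumonji and zinc finger domains beside these controls. The labels do not assign guides to domains or say what the mock cells were given, nor whether libraries of 1 group were cultured separately; a p-value here covers no more than the scatter among these libraries.

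Immediate-early genes are transcribed within minutes of a stimulus without new protein synthesis. Growth factors, cytokines and stress act through MAP kinases on serum response factor, its ternary complex partners and CREB, which wait at the promoters of these genes. The products are transcription factors and short-lived regulators: FOS and JUN proteins pair as AP-1, EGR proteins bind GC-rich sites, and in myeloid cells EGR1 and EGR2 are known for their part in macrophage differentiation. The same genes also respond to the handling of cells, so their values are given library by library.

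The promoters of 4 of these genes are shown because they carry the letters of the elements through which this pathway is known to act. The sequences come from RefSeq (GRCm38.p6), read on the gene's strand from 250 to 11 bases before the annotated start, at chr12:85473640-85473879 (plus strand) for Fos, chr7:19310056-19310295 (minus) for Fosb, chr10:67537619-67537858 (plus; 1 of 5 annotated starts, the first of those with the most matches) for Egr2 and chr15:101266596-101266835 (plus) for Nr4a1. Capitals mark TGACG, the core of the CREB and ATF site, GCGNGGGCG, the EGR site, or the CArG box of serum response factor, on either strand (CGTCA is TGACG read on the other strand).
Fos: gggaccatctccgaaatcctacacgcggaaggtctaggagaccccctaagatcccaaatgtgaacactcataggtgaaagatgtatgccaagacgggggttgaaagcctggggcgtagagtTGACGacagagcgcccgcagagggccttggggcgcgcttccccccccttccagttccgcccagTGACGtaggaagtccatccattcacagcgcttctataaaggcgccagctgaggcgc
Fosb: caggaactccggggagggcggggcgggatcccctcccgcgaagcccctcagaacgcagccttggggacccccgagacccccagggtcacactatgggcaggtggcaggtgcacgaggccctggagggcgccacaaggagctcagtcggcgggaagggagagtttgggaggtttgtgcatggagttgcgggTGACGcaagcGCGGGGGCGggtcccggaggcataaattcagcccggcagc
Egr2: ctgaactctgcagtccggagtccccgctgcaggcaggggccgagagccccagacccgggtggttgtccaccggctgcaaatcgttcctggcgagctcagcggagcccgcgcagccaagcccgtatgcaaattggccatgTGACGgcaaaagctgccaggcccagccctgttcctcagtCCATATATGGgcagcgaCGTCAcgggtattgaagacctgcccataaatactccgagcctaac
Nr4a1: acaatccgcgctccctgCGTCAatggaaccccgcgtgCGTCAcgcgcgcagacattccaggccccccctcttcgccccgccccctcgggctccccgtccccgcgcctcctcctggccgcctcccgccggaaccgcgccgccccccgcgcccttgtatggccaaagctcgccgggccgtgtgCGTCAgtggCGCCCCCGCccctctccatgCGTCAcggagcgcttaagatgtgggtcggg
Nr4a1 holds 4 copies of TGACG, which 0.122% of 32851 RefSeq promoter windows of the same 240 bases hold, and 1 copy of GCGNGGGCG, which 4.39% hold. Fos and Egr2 hold 2 copies of TGACG each, and 3.49% of windows hold 2 or more. Fosb holds 1 TGACG and 1 GCGNGGGCG; 16.9% of windows hold at least 1 TGACG. The CArG box of Egr2 starts at position -72, and 1.44% of windows hold such a box. None was matched in the windows of Fos, Fosb and Nr4a1, but sites more than 250 bases before the start lie outside these windows. A gene without a match here may therefore still hold such a box. The Egr2 window was picked from 5 starts for its matches, so shares of single windows make its motifs look rarer than they are. The window of the first Egr2 start by coordinate held none of the 3 motifs. In the windows of the other members with an entry, Junb held 1 TGACG and Jun and Ier3 none of the 3 motifs; Egr1, Egr3 and Ier2 were not matched. No motif matched overlaps another in these windows, and a match describes letters, not binding.

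Sequencing depth was estimated at 20.8 to 182.2 M reads per library (M, 1e+06 reads), with a median of 32.05 M. Jmjd1c itself stood at 42.2 to 74.4 FPKM in the 12 guide libraries, 64.2 to 85.4 FPKM with Renilla and 71.8 to 77.1 FPKM in mock, and the level of the transcript does not measure editing. The third replicates of e12.3 and e21.1 stood apart on principal component 2 of all tested genes (21.9% of variance) at -41.1 and -49.9, with every other library above 0, so results are also given without them. Their depth was 67.1 and 75.6 M reads, against 20.8 to 43.5 M in the other libraries except mock replicate 1 (182.2 M), and the part of depth in their values was not tested. On component 3 (13.6% of variance), e20.1 replicate 2 and Renilla replicate 1 stood at -33.6 and -34.3, with every other library at -6.3 or higher. These were left out 1 at a time and not together. Below, the libraries that stand apart are those on component 2. No pair of libraries held identical values.

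With the Jmjd1c guides, 6 of the 8 tested genes rose against Renilla and 8 of 8 rose against mock, and none fell. Among all 11550 tested genes, 7.77% were called higher against Renilla and 6.84% against mock (limma on log2(FPKM + 1), Benjamini-Hochberg adjusted p under 0.05). Egr1 rose most, to 8.67 ± 4.03 FPKM with the guides (SD, n = 12), against 0.567 ± 0.201 FPKM with Renilla (n = 3). Fos, Fosb, Ier3 and Nr4a1 rose by more than 1 log2 unit and Junb by 0.46, while the differences of Jun and Ier2 from Renilla did not pass. The median log2 fold change of the 8 genes was 1.45 against Renilla and 1.41 against mock, beside -0.03 and -0.02 for all tested genes; both comparisons use the same guide libraries. Egr1 and Fosb averaged under 1 FPKM in both control groups and reached the test only through the guide libraries, so these counts and medians are no support for a change of the genes as a class. Without the third replicates of e12.3 and e21.1, 6 genes were again called against Renilla.

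**Figure D1:**
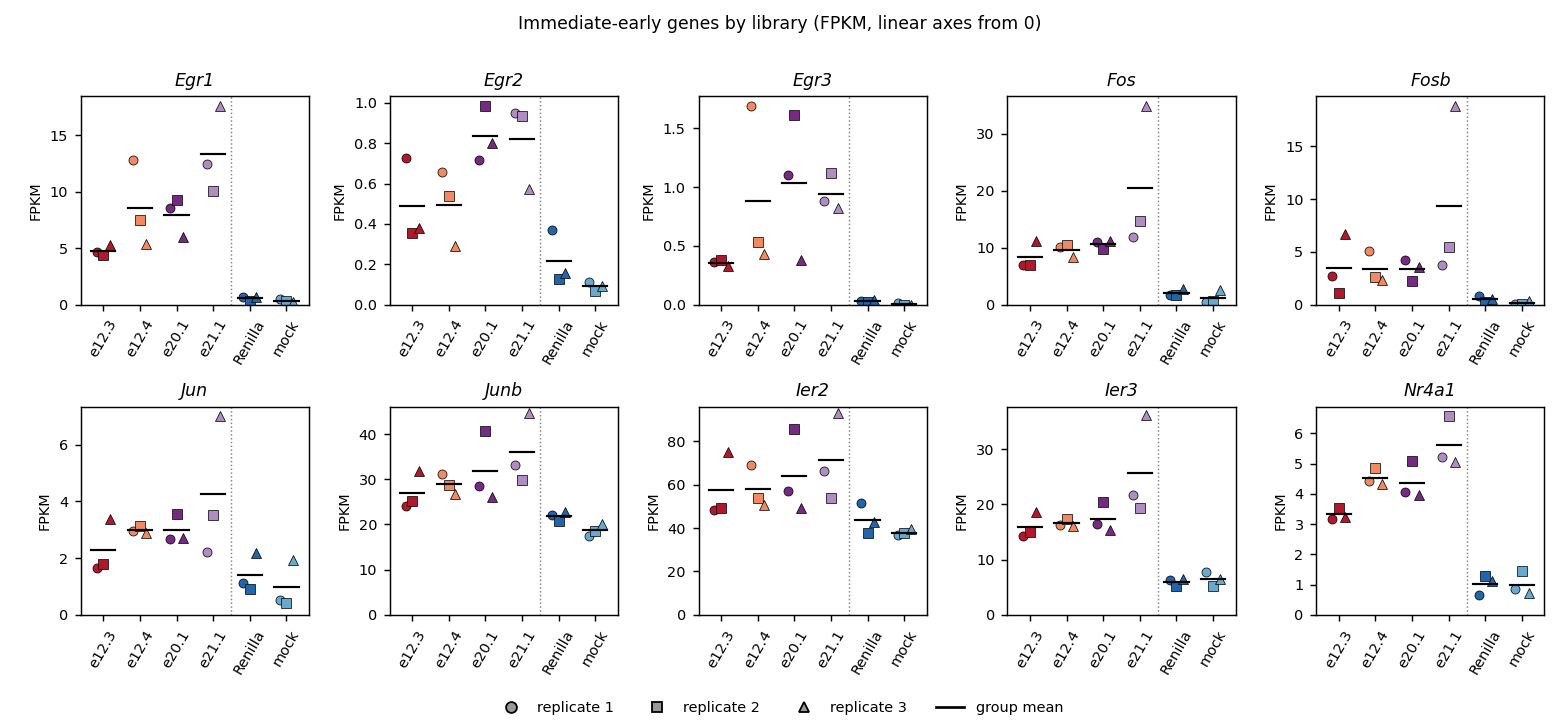
FPKM of the 10 immediate-early genes in each library (y axes linear from 0), with groups on the x axis, guides left of Renilla and mock; points are libraries, shaped by replicate number, and bars are means of 3. In 7 panels all 12 guide libraries lie above all 6 control libraries, and in the Fos, Fosb and Ier3 panels replicate 3 of e21.1 stands highest, at 34.8, 18.8 and 36.1 FPKM.

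The EGR genes encode zinc finger activators. Egr1 (ENSMUSG00000038418.7, GRCm38 chromosome 18, 34859823-34864984, plus strand) stood at 4.70, 4.41 and 5.25 FPKM (e12.3), 12.9, 7.49 and 5.37 (e12.4), 8.53, 9.29 and 6.01 (e20.1) and 12.42, 10.1 and 17.6 (e21.1) with the guides, against 0.664, 0.335 and 0.7005 (Renilla) and 0.506, 0.278 and 0.238 (mock). The lowest guide library lay above the highest control library, and e12.3 held the 3 lowest guide values. The guide mean was 15.3 times that of Renilla and 25.4 times that of mock. The log2 fold change was 2.53 against Renilla (SE 0.19, limma adjusted p = 4.8e-07) and 2.75 against mock (SE 0.19, adjusted p = 2.1e-07), and on this scale Egr1 ranked 14 of 11550 against Renilla. On log2(FPKM + 1) the change of a gene below 1 FPKM in the controls is understated: with a pseudocount of 0.1, the value against Renilla was 3.64.

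Egr3, a related factor that cooperates with EGR2 in lymphocytes, was nearly silent in the controls. Egr3 (ENSMUSG00000033730.4, chromosome 14, 70077203-70082614, plus strand) stood at 0.362, 0.376 and 0.329 FPKM (e12.3), 1.69, 0.536 and 0.433 (e12.4), 1.10, 1.62 and 0.383 (e20.1) and 0.883, 1.12 and 0.820 (e21.1) with the guides, against 0.0304, 0.0197 and 0.0407 (Renilla). In mock it stood at 0.0111 FPKM in replicate 1 and is listed at 0 in replicates 2 and 3. All 12 guide libraries were above all control libraries, in which these values stand for about 3.0 to 4.9 reads with Renilla and 8.0 reads in mock replicate 1, the deepest library. The guide mean was 26.5 times that of Renilla. Without a filter on low values, where 3.82% of 23899 genes were called higher against Renilla and 3.35% against mock, Egr3 was called against both (limma adjusted p = 0.017 and 0.014), and against Renilla also without the third replicates of e12.3 and e21.1 (adjusted p = 0.024).

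Egr2, which in macrophages and Schwann cells controls differentiation genes, was low throughout. Egr2 (ENSMUSG00000037868.15, chromosome 10, 67535475-67542188, plus strand) stood at 0.729, 0.353 and 0.381 FPKM (e12.3), 0.657, 0.537 and 0.293 (e12.4), 0.716, 0.986 and 0.801 (e20.1) and 0.950, 0.937 and 0.576 (e21.1) with the guides, against 0.368, 0.127 and 0.159 (Renilla) and 0.114, 0.0651 and 0.0912 (mock). The groups overlapped in 1 place: Renilla replicate 1 lay above 1 library of e12.3 and 1 of e12.4, and the other 10 guide libraries were above all controls. The guide mean of Egr2 was 3.03 times that of Renilla. Without a filter Egr2 was called against Renilla (log2 fold change 0.44, limma adjusted p = 0.013) and mock (0.59, adjusted p = 0.0017). Against Renilla it was also called without the third replicates of e12.3 and e21.1 (limma adjusted p = 0.005). Egr1 made up 85.2 ± 3.85% of the summed FPKM of the 3 EGR genes with the guides, 70.0 ± 7.69% with Renilla and 77.9 ± 4.84% in mock.

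FOS proteins have no DNA-binding dimer of their own and work through a JUN partner. Fos (ENSMUSG00000021250.13, chromosome 12, 85473890-85477273, plus strand) stood at 6.998, 6.92 and 11.2 FPKM (e12.3), 10.1, 10.4 and 8.27 (e12.4), 10.96, 9.72 and 11.1 (e20.1) and 11.8, 14.7 and 34.8 (e21.1) with the guides, against 1.71, 1.61 and 2.73 (Renilla) and 0.458, 0.656 and 2.48 (mock). The guide and control libraries did not overlap, and replicate 3 was the highest of its group in e12.3, e20.1, e21.1, Renilla and mock. Fos averaged 12.2 ± 7.42 FPKM with the guides, 6.08 times the 2.01 ± 0.621 FPKM of Renilla. Its log2 fold change was 2.03 against Renilla (SE 0.27, limma adjusted p = 0.00012) and 2.58 against mock (SE 0.27, adjusted p = 1.3e-05), and 1.86 against Renilla without the third replicates of e12.3 and e21.1.

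Fosb, a close relative of Fos with a longer-lived splice form, varied most among the guide libraries. Fosb (ENSMUSG00000003545.3, chromosome 7, 19302696-19310051, minus strand) stood at 2.67, 1.09 and 6.68 FPKM (e12.3), 5.12, 2.57 and 2.32 (e12.4), 4.24, 2.20 and 3.57 (e20.1) and 3.77, 5.47 and 18.8 (e21.1) with the guides, against 0.790, 0.231 and 0.502 (Renilla) and 0.0602, 0.0839 and 0.373 (mock). The groups did not overlap, but the highest guide library was 17.2 times the lowest. The log2 fold change was 1.72 against Renilla (SE 0.38, limma adjusted p = 0.0071) and 2.08 against mock (SE 0.38, adjusted p = 0.0019). The call against Renilla was lost without Renilla replicate 2 (1.59, adjusted p = 0.051) and kept without the third replicates of e12.3 and e21.1 (1.45, adjusted p = 0.00043).

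JUN proteins bind DNA as their own dimers or with FOS. Jun (ENSMUSG00000052684.4, chromosome 4, 95049034-95052222, minus strand) stood at 1.65, 1.79 and 3.36 FPKM (e12.3), 2.96, 3.14 and 2.89 (e12.4), 2.66, 3.57 and 2.72 (e20.1) and 2.22, 3.53 and 7.01 (e21.1) with the guides, against 1.13, 0.906 and 2.18 (Renilla) and 0.530, 0.426 and 1.94 (mock). Replicates 1 and 2 of e12.3 lay below Renilla replicate 3, and 10 of 12 guide libraries were above all controls. The difference from Renilla was 0.76 log2 units (95% interval 0.21 to 1.30) and did not pass (limma adjusted p = 0.074), though it passed without e21.1 replicate 1 (adjusted p = 0.035) and with Renilla and mock together as the control (0.92, adjusted p = 0.0039). It lay further from passing without Renilla replicate 1 (0.69, limma adjusted p = 0.25) or 2 (0.61, 0.28) and with no filter (adjusted p = 0.15). Against mock Jun rose by 1.09 (SE 0.26, adjusted p = 0.012), a call lost without mock replicate 1 (0.95, adjusted p = 0.10) or 2 (0.90, adjusted p = 0.12).

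Junb, an AP-1 subunit that in mice restrains growth of myeloid progenitors, was the more abundant of both JUN genes among the 10, at 30.9 ± 6.18 FPKM with the guides, against 21.9 ± 0.979 with Renilla and 18.7 ± 1.33 in mock. Junb (ENSMUSG00000052837.6, chromosome 8, 84974484-84978718, minus strand) stood at 24.2, 25.1 and 31.7 FPKM (e12.3), 31.1, 28.7 and 26.8 (e12.4), 28.6, 40.6 and 26.1 (e20.1) and 33.2, 29.9 and 44.7 (e21.1) with the guides, against 22.1, 20.8 and 22.8 (Renilla) and 17.4, 18.6 and 20.04 (mock). No guide library overlapped a control, though the lowest lay close to the highest Renilla value. The log2 fold change against Renilla was 0.46 (SE 0.13, limma adjusted p = 0.030), and the call was lost without Renilla replicate 1, 2 or 3 (0.099, 0.13 and 0.072), with no filter (0.056) or with only the compared groups in the model (0.054). Against mock it was 0.68 (SE 0.13, adjusted p = 0.0024), with no call lost under the alternatives run.

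**Figure D2:**
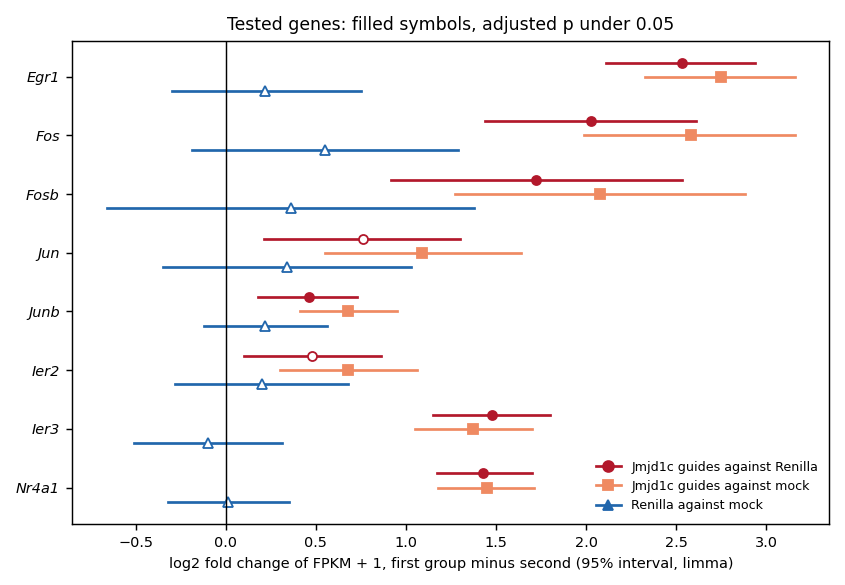
Log2 fold changes of FPKM + 1 (x axis) of the 8 tested genes (y axis) for the Jmjd1c guides against Renilla (circles), the guides against mock (squares) and Renilla against mock (triangles), with 95% intervals from limma; filled symbols passed the test. Egr1 and Fos stand farthest right, Jun and Ier2 passed against mock and not against Renilla, and every interval of Renilla against mock covers 0.

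Ier2 and Ier3 encode short-lived products unrelated in sequence: IER2 is a nuclear protein, and IER3 acts on survival and on ERK signalling. Ier3 (ENSMUSG00000003541.6, chromosome 17, 35821684-35822923, plus strand) stood at 14.3, 14.9 and 18.7 FPKM (e12.3), 16.2, 17.4 and 16.1 (e12.4), 16.5, 20.3 and 15.3 (e20.1) and 21.7, 19.3 and 36.1 (e21.1) with the guides, against 6.24, 5.24 and 6.39 (Renilla) and 7.81, 5.23 and 6.55 (mock). The lowest guide library lay above every control by a wide margin, with a guide mean 3.17 times that of Renilla. The log2 fold change was 1.48 against Renilla (SE 0.15, limma adjusted p = 9.5e-06) and 1.37 against mock (SE 0.15, adjusted p = 1.9e-05). Ier2 (ENSMUSG00000053560.4, chromosome 8, 84661331-84662852, minus strand) was the most abundant of the 10 genes, at 48.5, 49.3 and 74.8 FPKM (e12.3), 69.1, 53.8 and 50.6 (e12.4), 56.9, 85.8 and 49.4 (e20.1) and 66.3, 53.9 and 93.1 (e21.1) with the guides, against 51.4, 37.8 and 42.6 (Renilla) and 36.6, 37.5 and 39.3 (mock). Renilla replicate 1 lay within the guide range, and 8 of 12 guide libraries were above all controls. The difference from Renilla, 0.48 (95% interval 0.10 to 0.86), did not pass (limma adjusted p = 0.11), but with Renilla and mock together as the control Ier2 passed (0.58, adjusted p = 0.008). Without Renilla replicate 2 or 3 the difference was 0.38 or 0.46 (limma adjusted p = 0.33 and 0.22). Against mock Ier2 rose by 0.68 (SE 0.18, adjusted p = 0.024), a call lost without any 1 of the mock replicates (0.11, 0.11 and 0.091) or with no filter (0.055).

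Nr4a1 encodes the orphan nuclear receptor NUR77, which in mice is needed for Ly6C-low monocytes and whose joint loss with Nr4a3 leads to myeloid leukaemia. Nr4a1 (ENSMUSG00000023034.7, chromosome 15, 101254269-101274795, plus strand) stood at 3.18, 3.54 and 3.24 FPKM (e12.3), 4.43, 4.86 and 4.32 (e12.4), 4.06, 5.07 and 3.95 (e20.1) and 5.23, 6.59 and 5.04 (e21.1) with the guides, against 0.649, 1.27 and 1.12 (Renilla) and 0.838, 1.43 and 0.724 (mock). Groups did not overlap, and the guide mean was 4.401 times that of Renilla. The log2 fold change was 1.43 against Renilla (SE 0.12, limma adjusted p = 1.7e-06) and 1.45 against mock (SE 0.12, adjusted p = 1.6e-06). Replicate 3 was the highest of its group in none of the 6 groups.

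In 7 of the 10 genes, Egr1, Egr3, Fos, Fosb, Junb, Ier3 and Nr4a1, all 12 guide libraries were above all 6 control libraries. Over all genes with no filter this held for 2.83%, and over tested genes for 4.92%. The 10 genes were chosen with earlier results of these data known, so this contrast is no support for a change of the genes as a class. In bulk RNA, more cells that express a gene and more RNA per cell cannot be told apart.

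Between both control groups, none of the 8 tested genes passed, nor did any of the 11550 genes (0.0% called; 127 at an unadjusted limma p under 0.05, 1.10%). Fos differed by 0.55 log2 units between Renilla and mock (95% interval -0.19 to 1.29), Fosb by 0.36 (-0.66 to 1.38) and Jun by 0.34 (-0.35 to 1.03), intervals that do not show equal levels. With 1 library left out, Fos ranged from 0.31 to 0.94, Fosb from 0.22 to 0.49 and Jun from 0.12 to 0.67, and with a pseudocount of 0.1 Fos differed by 1.00 and Fosb by 1.22, none of them called. Nr4a1 differed by 0.01 (-0.32 to 0.35) and Ier3 by -0.10 (-0.51 to 0.31). In 7 of 8 genes the Renilla mean lay above the mock mean, with a median of 0.22 beside 0.00 for all tested genes.

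Each guide was also set against Renilla, with the same 3 Renilla libraries in all 4 comparisons. Egr1, Fos, Ier3 and Nr4a1 were called higher with every guide, 4 of 8 with e12.3 (3.03% of all tested genes were), 4 with e12.4 (5.57%) and 4 with e20.1 (4.61%). With e21.1, 6 of 8 were called (7.06%), with Fosb and Junb added. Egr1 stood 1.89 log2 units above Renilla with e12.3, 2.54 with e12.4, 2.50 with e20.1 and 3.17 with e21.1. In the same order of guides, Fos stood 1.63, 1.82, 1.96 and 2.70 above Renilla, Ier3 1.28, 1.34, 1.39 and 1.89, and Nr4a1 1.11, 1.47, 1.42 and 1.72. Fosb stood 2.51 log2 units above Renilla with e21.1 (SE 0.48, limma adjusted p = 0.0031), and 1.38, 1.48 and 1.51 with e12.3, e12.4 and e20.1, where it did not pass (0.17, 0.080 and 0.086). Without the third replicates of e12.3 and e21.1, Fosb passed with both e12.4 and e20.1 (adjusted p = 0.0024 and 0.0026), as it did with a pseudocount of 0.1 (0.031 and 0.033) or with only the compared groups in the model (0.017 and 0.016). With e12.3 its value without these libraries was 0.89 log2 units (adjusted p = 0.13). Jun did not pass with e21.1 (adjusted p = 0.053), but passed without e21.1 replicate 1 (1.36, adjusted p = 0.020) or Renilla replicate 3 (1.28, adjusted p = 0.041). Without the third replicates of e12.3 and e21.1, Jun with e21.1 fell to 0.70 log2 units (limma adjusted p = 0.15). Junb passed with e12.4 when only the compared groups were in the model (adjusted p = 0.034) and with e20.1 without the third replicates of e12.3 and e21.1 (adjusted p = 0.025), and Ier2 with e21.1 without e21.1 replicate 2 (0.84, adjusted p = 0.042). Over all alternatives the limma adjusted p reached 0.25 and 0.23 for Fosb with e12.4 and e20.1. For Junb with these guides it reached 0.39 and 0.32, and for Ier2 with e21.1 it reached 0.32. The call of Fos with e12.3 was lost without e12.3 replicate 3 (1.42, adjusted p = 0.059) or Renilla replicate 1 (0.063) or 2 (0.067), and that of Junb with e21.1 without e21.1 replicate 3 (0.51, adjusted p = 0.073) or Renilla replicate 2 (0.056) or with only those groups in the model (0.088).

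**Figure D3:**
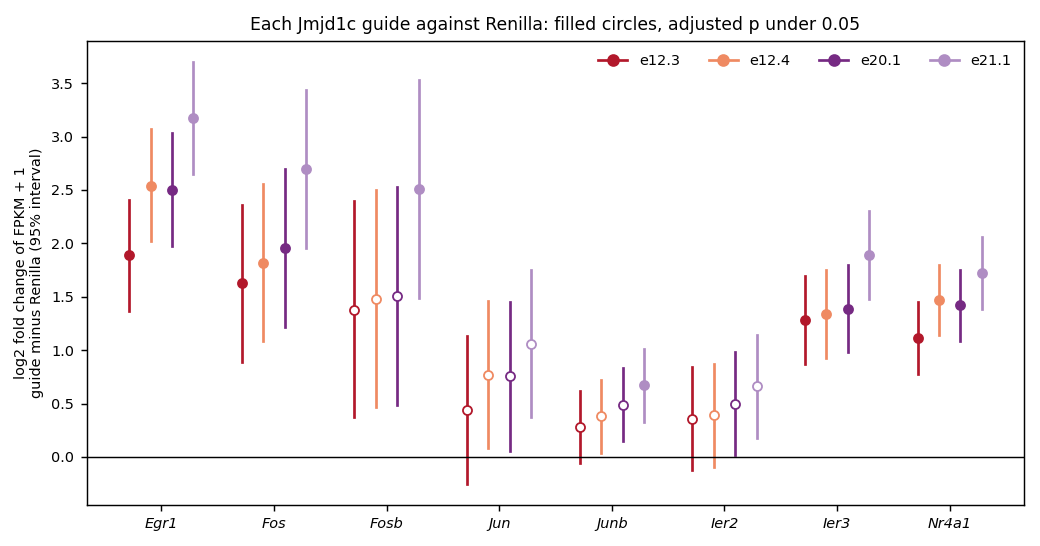
Log2 fold changes of FPKM + 1 against Renilla (y axis, 95% intervals from limma) of the 8 tested genes (x axis) for each Jmjd1c guide; filled circles passed the test. Egr1, Fos, Ier3 and Nr4a1 are filled for all 4 guides, and Fosb and Junb for e21.1 only.

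On the log2(FPKM + 1) scale the fold change of all 8 genes was smallest with e12.3 and greatest with e21.1. By the ratio of mean FPKM to that of Renilla, Fosb stood at 6.855 with e12.3, 18.42 with e21.1, 6.576 for the e12.4 guide and 6.575 for the e20.1 guide. Differences among the 4 guides passed the F test of limma for none of the 8 genes and for none of all tested genes (0.0% called). At an unadjusted p under 0.05 stood 4 of the 8, Egr1 (0.0011), Nr4a1 (0.012), Ier3 (0.022) and Fos (0.037), beside 2.06% of all tested genes. By level, Egr1 averaged 4.78 ± 0.428 FPKM with e12.3, 7.94 ± 1.72 with e20.1, 8.57 ± 3.85 with e12.4 and 13.4 ± 3.84 with e21.1, and in this order the libraries of e12.4 overlapped both those of e20.1 and those of e21.1. Nr4a1 averaged 3.32 ± 0.193 FPKM with e12.3, 4.36 ± 0.618 with e20.1, 4.53 ± 0.285 with e12.4 and 5.62 ± 0.845 with e21.1 (SD, n = 3 each), and e12.3 did not overlap the other guides. Without the third replicates of e12.3 and e21.1, e12.3 was still lowest on that log2 scale in all 8 genes and e21.1 highest in 6, with Jun and Ier2 then higher in e12.4 or e20.1.

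The guides whose names begin with e20 and e21 were compared with those that begin with e12. None of the 8 genes passed, and none of all tested genes (0.0% called). All 8 were higher with e20.1 and e21.1, by a median of 0.32 log2 units, and 5 of 8 had an unadjusted limma p under 0.05, beside 1.55% of all tested genes. Egr1 differed by 0.62 (95% interval 0.25 to 0.99), Fos by 0.60 (0.08 to 1.13) and Nr4a1 by 0.28 (0.04 to 0.51). Without both libraries that stand apart these differences were 0.55, 0.48 and 0.30. With 2 guides in each pair, these p-values cover the scatter of libraries and not the spread between guides. Against Renilla, e12.3 was lowest and e21.1 highest in all 8 genes, while e12.4 and e20.1 stood close together. Egr1 was 2.54 and 2.50 log2 units above Renilla with e12.4 and e20.1, Nr4a1 1.47 and 1.42, and Fos 1.82 and 1.96.

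Within groups, some of the 10 genes varied together more closely than others. Deviations of log2(FPKM + 1) from the group mean were closely alike for Fos and Jun (r = 0.93 over 18 libraries, 0.88 without both libraries that stand apart) and for Junb and Ier2 (0.94 and 0.90). Egr1 and Egr3 followed each other less closely (0.68 and 0.83). Nr4a1 had r between -0.40 and 0.24 with every other member. These correlations describe libraries that share depth and preparation and carry no test. Fos was highest in replicate 3 in 5 of 6 groups, Jun and Junb in 4, and Egr2 and Nr4a1 in 0; 6.5% of tested genes had replicate 3 highest in at least 5 groups.

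**Figure D4:**
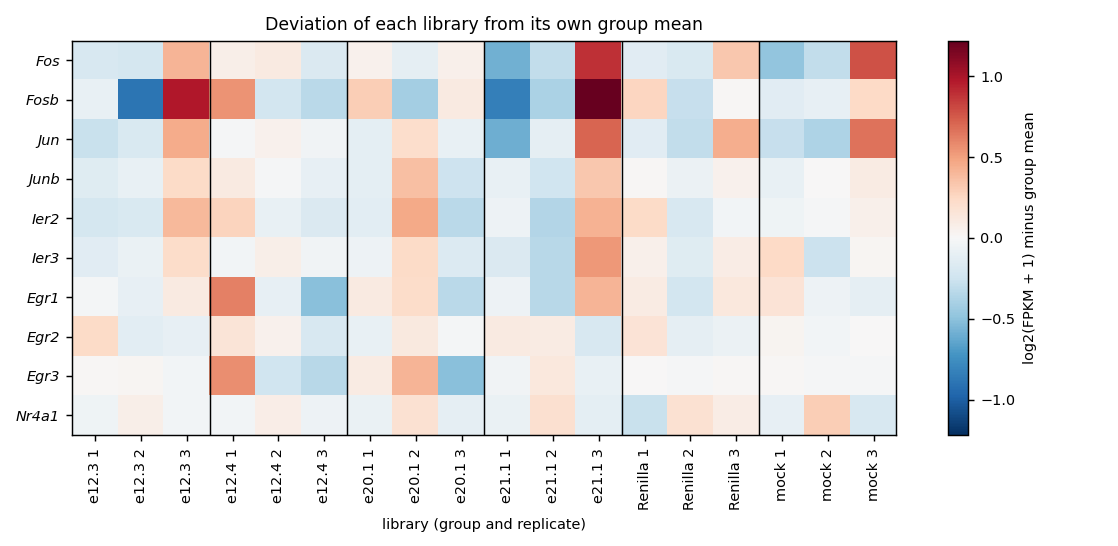
Deviation of log2(FPKM + 1) from the mean of the library's own group (colour scale) for the 10 genes (rows) in the 18 libraries (columns). Replicate 3 of e12.3, e21.1, Renilla and mock is red for Fos and Jun, e12.4 replicate 1 is red for Egr1 and Egr3, and the Nr4a1 row is not red in replicate 3 of e12.3, e21.1 or mock.

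Heat-shock genes, listed for handling, were also read beside these values. Of 11 tested heat-shock chaperone and co-chaperone genes, none was called against Renilla or mock, with a median log2 fold change of -0.14 and -0.15. The summed level of the listed heat-shock genes was 3492 to 5257 FPKM in the guide libraries, 5070 to 6028 with Renilla and 5029 to 5684 in mock. The largest parts with the guides were Hspa8, Hsp90ab1 and Hsp90aa1, at means of 1632, 1291 and 894 FPKM. The sum therefore mostly follows these abundant genes and does not measure a response to handling. In e12.3 and e21.1, where replicate 3 was the highest for Fos and Jun, that replicate had the lowest sum of all libraries (3492 FPKM, e21.1) or 4010 FPKM (e12.3). In Renilla and mock replicate 3 was also the highest for Fos and Jun, and there no library had a sum below 5029 FPKM. Hspa1a and Hspa1b, the stress-induced HSP70 genes, did not exceed 0.242 and 1.123 FPKM in any library and were too low to be tested. Hspa1b averaged 0.700 FPKM with the guides, 0.881 with Renilla and 0.844 in mock. How long cells stood before lysis is not given in the sources used here, and its part in the Fos and Jun values was not tested.

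The make-up of the FOS family differed between guide and control libraries; these shares carry no test. Fos held 50.4 ± 3.83% of the summed FPKM of Fos, Fosb, Fosl1 and Fosl2 with the guides, against 31.4 ± 3.56% with Renilla and 22.1 ± 12.1% in mock. Fosb held 18.3 ± 6.99% with the guides, against 8.23 ± 5.25% with Renilla and 3.11 ± 2.003% in mock. The summed FPKM was 23.8 ± 12.44 with the guides, 6.33 ± 1.21 with Renilla and 4.75 ± 1.91 in mock. Of the subunits outside the 10 genes, Fosl2 rose to 4.95 ± 0.993 FPKM with the guides, against 2.30 ± 0.487 with Renilla (0.84 log2 units, SE 0.14; limma adjusted p = 0.00072), and Fosl1 stood at 1.71 ± 0.333 against 1.51 ± 0.359 FPKM and did not pass (adjusted p = 0.68). In the JUN family, Jund, the constitutive member, stood at 37.1 ± 11.5 FPKM with the guides, against 24.5 ± 0.260 with Renilla (0.53, adjusted p = 0.13) and 19.95 ± 2.45 in mock (0.82, adjusted p = 0.020). Jun remained the minor JUN gene, with 4.30 ± 0.952% of the family sum with the guides, 2.91 ± 1.32% with Renilla and 2.37 ± 1.93% in mock. Nr4a1 made up 58.7 ± 8.29% of the NR4A sum with the guides, against 26.4 ± 4.69% with Renilla, while its paralog Nr4a2 stood at 3.13 ± 0.857 against 2.73 ± 0.283 FPKM and did not pass (0.12, adjusted p = 0.76).

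**Figure D5:**
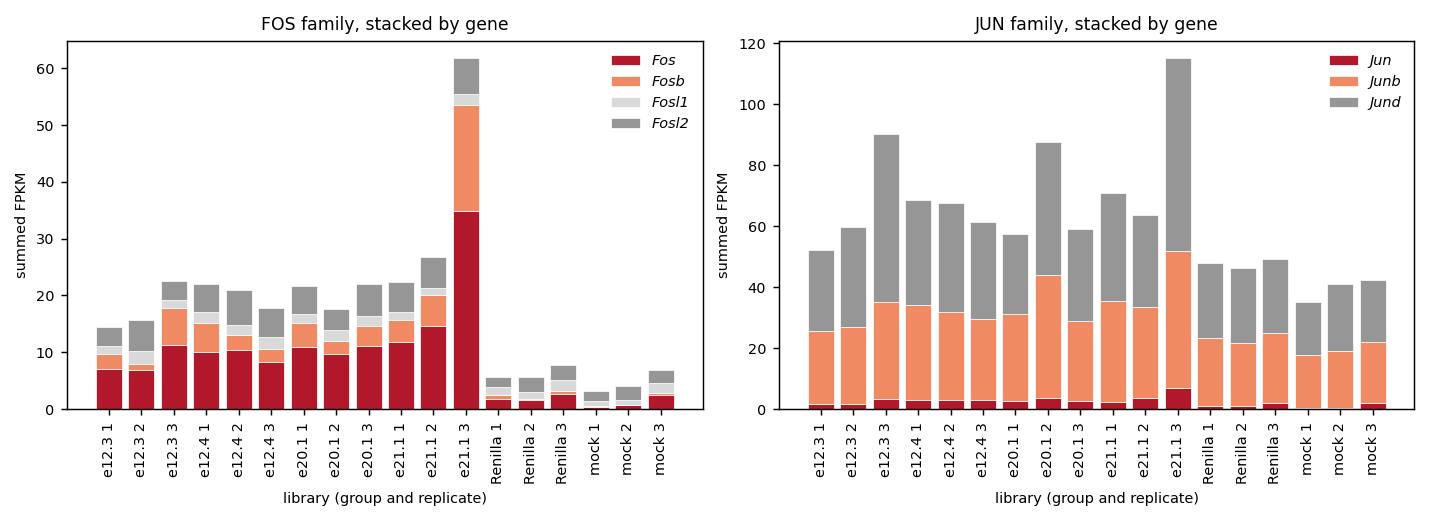
Summed FPKM (y axes from 0) of the FOS family (left) and the JUN family (right) in each library, stacked by gene, guides left of Renilla and mock. The red share for Fos is larger in the guide libraries, with a group mean of 50.4% against 31.4% with Renilla, and Junb and Jund fill most of every JUN bar.

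Other parts of the pathway were read from lists. Of 19 other immediate-early genes tested, 10 were called higher against Renilla and 0 lower, with a median of 0.43, and 10 and 0 against mock with a median of 0.40 (of all tested genes, 7.77% were called higher against Renilla and 6.84% against mock). Klf6, a zinc finger factor, rose to 16.4 ± 3.39 FPKM with the guides, against 5.35 ± 0.490 with Renilla (1.43, limma adjusted p = 2.8e-07), and Ier5, a regulator of the heat-shock factor, to 10.97 ± 2.53 against 3.89 ± 0.0764 FPKM (1.27, adjusted p = 2.7e-05). Zfp36, which destabilises AU-rich mRNAs, rose to 29.1 ± 6.77 against 12.5 ± 2.25 FPKM, and Btg2, an antiproliferative gene, to 5.46 ± 0.836 against 2.81 ± 0.127 FPKM. Of 9 other AP-1 subunits and partners tested, Fosl2 alone was called against Renilla. None of the 12 listed regulators (the EGR co-repressors Nab1 and Nab2 and the SRF, TCF and CREB factors) was called, with a median of 0.10. Nab2 is also on the list of EGR targets. Of 16 MAP kinase pathway genes, Mapk3, which encodes ERK1, was the only one called, at 64.2 ± 18.4 FPKM with the guides against 39.3 ± 2.65 with Renilla (0.65, adjusted p = 0.017); none of the 16 was called against mock, and mRNA levels do not measure kinase activity. Of 14 genes listed as EGR targets, 9 were called higher against Renilla and 7 against mock, and none lower (median 0.66 and 0.53), beside the same 7.77% and 6.84% of all tested genes. Ccl3, a chemokine, rose to 68.8 ± 17.5 against 9.34 ± 3.12 FPKM, Csf1r, the macrophage growth factor receptor that is also on the monocyte list, to 11.8 ± 2.76 against 2.25 ± 0.177, Cdkn1a, the cell-cycle inhibitor p21, to 132.4 ± 18.3 against 70.5 ± 5.81, and Itgb2, the beta-2 integrin, to 270.7 ± 29.6 against 178.7 ± 4.31. Some of these targets were already known to rise in these libraries and give no independent support. The other immediate-early genes and the EGR targets each include a tested gene that averaged under 1 FPKM in both control groups. Such a gene reached the test only through the guide libraries, so the counts and medians of both lists are no support for a change of either list.

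Monocyte and macrophage markers were also higher with the guides: 6 of 8 tested were called higher against Renilla and 0 lower (median 1.25), with summed levels of 332.5 to 612.2 FPKM in guide libraries, 217.9 to 225.5 with Renilla and 203.9 to 212.0 in mock. Against mock 6 were also called higher and 0 lower (median 1.28), beside 7.77% of all tested genes called higher against Renilla and 6.84% against mock. Beside Csf1r, Ctss, the lysosomal protease cathepsin S, rose to 51.3 ± 13.9 FPKM with the guides, against 4.04 ± 0.808 with Renilla (3.34 log2 units, limma adjusted p = 1.9e-08). Irf8, a transcription factor of the monocyte lineage, rose to 43.3 ± 17.6 against 11.04 ± 0.4375 FPKM, and Adgre1, which encodes the macrophage antigen F4/80, to 68.6 ± 13.3 against 33.9 ± 2.04 FPKM. Klf4, a transcription factor of mature monocytes on the same list, was too low to be tested and averaged 0.210 FPKM with the guides, 0.121 with Renilla and 0.056 in mock. Of 8 tested mature neutrophil markers 2 were called higher against Renilla and 4 against mock (median 0.86 and 1.24). Some of them averaged under 1 FPKM in both control groups and reached the test only through the guide libraries. These neutrophil counts and medians are therefore no support for a change of the markers as a class. The neutrophil markers summed to 113.5 to 922.6 FPKM in the guide libraries, 108.5 to 191.3 with Renilla and 92.9 to 121.2 in mock. Replicate 3 of e12.3 held 922.6 and replicate 3 of e21.1 held 646.3, against 113.5 to 585 FPKM in the other 10 guide libraries. Of 10 myeloid leukaemia cell markers 1 was called higher and 4 lower against each control, Mpo, Ctsg and Ms4a3 among the lower against Renilla. Of all 11550 tested genes, 371 were called lower against Renilla and 250 against mock. The 10 leukaemia cell markers summed to 2153 to 5433 FPKM in the guide libraries, 4943 to 5780.5 with Renilla and 5279 to 5520.3 in mock. Here too the third replicates of e12.3 and e21.1 stood highest of the guide libraries, at 5433 and 4292 FPKM, against 2153 to 3519.65 FPKM in the other 10. The same libraries were lowest for megakaryocyte markers, at 3.31 and 3.25 FPKM against 12.93 to 17.03 in the other 10 guide libraries, and for erythroid markers, at 81.3 and 65.5 against 115.2 to 147.7 FPKM. Lymphoid markers summed to 1.25 to 2.77 FPKM in the guide libraries, 1.39 to 2.33 with Renilla and 1.11 to 1.99 in mock, and of the 5 erythroid, megakaryocyte, lymphoid and stromal markers tested none was called. The part of these cell types in the levels of the 10 genes was not tested.

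Among the genes whose pattern was most like the mean standardised level of the 8 tested genes over 18 libraries were Dusp1, a MAP kinase phosphatase (r = 0.970), Tpm4, a tropomyosin (0.966), Dusp5, an ERK phosphatase (0.966), Ckap4, a membrane protein of the endoplasmic reticulum (0.966), Ier5 (0.966), Pmaip1, the BH3-only protein NOXA (0.966), and Btg1, an antiproliferative gene (0.965). Over the 12 guide libraries alone, r was between 0.833 and 0.944 for these genes. For Egr1 alone they were Osm, the cytokine oncostatin M (0.985), Dusp5 (0.984), Prkch, a protein kinase C (0.982), Fxyd5, an ion transport regulator (0.976), and Zbp1, a nucleic acid sensor (0.976). Dusp1 stood at 10.8 ± 3.92 FPKM with the guides, against 3.77 ± 1.14 with Renilla and 3.56 ± 1.61 in mock, and Dusp5 at 4.86 ± 0.909 against 1.66 ± 0.0870 and 1.67 ± 0.241. These correlations are descriptions and carry no test, and the points share their libraries and the split between guides and controls.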

How the data were processed

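The authors deposited FPKM for 23899 genes in 18 libraries. Per the submitters' processing notes, bcl2fastq 2.22.0.422, Salmon 0.13.0, DESeq2 1.22.1 and R 3.5.3 were used with mm10. Per the labels' protocols, RNA was extracted with TRIzol and poly(A) libraries were made with a directional kit. Depth was estimated from FPKM steps of 1473 genes with a single transcript; 92.3 to 97.3% of low values lie within 0.1 read of a whole number (20% for an even spread). Genes averaging 1 FPKM or more (11550) were fitted as log2(FPKM + 1) by limma-trend (version 3.58.1, under R 4.3.3), with 6 group means, checked on simulated data, and adjusted over all tested genes. Guides were weighted equally. All 10 members are named, with up to 4 genes of each list with a call, by smallest p, and the 8 and 5 genes most like the members and Egr1; 2 genes these rules or lists hold are not reported here. Members and lists were chosen with earlier results of these data known. Gene positions are from GENCODE (GRCm38). Python 3.11.15, pandas 2.3.3 and matplotlib 3.10.9 were used for tables and figures. Alternatives were pseudocount 0.1, no filter, 5 FPKM in 3 libraries, upper-quartile scaling, only the compared groups, a block for the replicate number, leaving out each library, the 2 libraries that stand apart left out, and Renilla and mock together; for Egr2 and Egr3, pseudocount 0.1 or those 2 libraries left out were combined with no filter, chosen after seeing the data.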

Additional observations from a re-analysis of the deposited data

How the results depend on the processing

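The count of called immediate-early genes stayed within 1.5 times its main value in every comparison: 5 to 8 against Renilla and 7 to 9 against mock under the other settings, and 4 to 7 and 6 to 8 with 1 library left out. Under all alternatives Egr1, Fos, Ier3 and Nr4a1 were called in both comparisons, with log2 fold changes against Renilla of 2.42 to 3.64, 1.86 to 2.44, 1.38 to 1.61 and 1.29 to 2.05. Egr2 and Egr3 gave no value with a filter and Jun none with the stricter one; with no filter and pseudocount 0.1, Egr2 and Egr3 stood 1.26 and 2.61 above Renilla. Between Renilla and mock, Ier3 ranged from -0.23 to 0.02 and Nr4a1 ranged from -0.08 to 0.16 with 1 library left out, none called. The cause was not tested for these or for the counts that follow.

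Over all genes, 1268 were called against Renilla, 2085 without both libraries that stand apart, 2109 against Renilla and mock together and 814 to 1502 with 1 library left out (814 without Renilla replicate 1, 828 without replicate 2). Against mock the count was 1040, then 1878 without both libraries and 580 to 1273 with 1 left out (649, 580 and 589 without mock replicate 1, 2 or 3). For e12.3 it was 370, then 80 with only the compared groups, 709 without both and 252 to 392 with 1 left out; for e12.4 819, then 1542 without both and 491 to 638; for e20.1 656, then 431 with only the compared groups, 1290 without both and 400 to 519; for e21.1 1098, then 332 with only the compared groups. Between Renilla and mock 1 gene was called with no filter (Gm18801) and 4 with only those groups (Gm10800, Gm10801, Gm44223 and Zfp969). Between guide pairs 1 was called with no filter (Phyhip) and 1 without both libraries (BX890553.1), and 0 to 1 with 1 left out. Among the 4 guides 2 were called with no filter (Gm13588 and Phyhip), 3 without both (BX890553.1, Mgl2 and Mpo) and 0 to 1 with 1 left out; these genes were named after their values were seen.

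Replicate numbers do not pair the samples by the labels. Of 45 same-numbered pairs, 26 had correlated deviations over 0.1 (r from -0.25 to 0.76), and 17 of 18 libraries correlated best with their own number, a hint from the data and not the design. With the replicate number as a block, 1809 genes were called against Renilla and 1460 against mock, 989 with e20.1 and 1652 with e21.1; 7 of 8 immediate-early genes were called against Renilla, Jun included (limma adjusted p = 0.018). Under the block Fosb also passed with e12.4 and e20.1 (adjusted p = 0.041 and 0.043) and Jun with e21.1 (adjusted p = 0.012).

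At this depth Egr3 rests on about 3.0 to 4.9 reads per Renilla library.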
